A study of Mus musculus with 6 samples.

Results

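Leukocyte and macrophage genes were followed in RNA of keratocytes sorted from the mouse cornea, the fibroblast-like cells that lay down its transparent collagen stroma. The 36 genes were listed by symbol, and 35 of them were found among the 17606 genes of the deposited table, with Trac not analysed here. All 35 had enough counts to enter the test, which ran on 13888 genes. They comprise 6 genes of leukocytes in general, 5 of antigen presentation by MHC class II, 14 of macrophages and monocytes, the 3 chains of complement C1q, 4 measured genes of T and natural killer (NK) cells, 2 of neutrophils, and the Fc receptor-like gene Fcrl6. The libraries were 3 control samples and 3 Ptch1-ablated ones from mice of 10 weeks, and both groups had been given 3 doses of tamoxifen, with the treatment lasting 1 month. The ablated group carried Prrx1-creERT and Ptch1 alleles flanked by loxP sites, and the labels name the other group only as ctrl. Prrx1-CreERT drives a tamoxifen-dependent recombinase from a mesenchymal gene and is not limited to keratocytes among the mesenchymal cells of the eye. Ptch1 is the receptor that holds Hedgehog signaling in check. Each library is bulk RNA of a sorted population, and the surface markers of the sort, and whether animals were pooled, are not given in the sources used here.

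The normal corneal stroma holds a resident population of bone marrow-derived cells beside its keratocytes, mostly macrophages with some dendritic cells. Macrophages take up debris through scavenger and Fc receptors, secrete the C1q that starts the classical complement pathway, and can present peptides to CD4+ T cells on MHC class II molecules. Class II molecules are dimers of an alpha and a beta chain that are assembled on the invariant chain Cd74 and switched on together by the transactivator Ciita.

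Library totals ran from 20258414 to 24788039 counts, and 14331 to 15645 genes had a count in a library. Ptch1 itself was at 5.47 to 16.2 CPM (counts per 1000000 of the scaled library total) in controls and 185 to 251 CPM in the ablated libraries, and gene totals do not resolve the floxed exons. Defining keratocyte markers were abundant in every library, and the summed level of 10 of them was 140337 to 161226 CPM in controls and 83238 to 94893 CPM in the ablated libraries, with 8 of the 10 lower past an adjusted p of 0.05 and 0 higher. Replicates of a group differed by more than counting noise in every pairing.

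The results turn on the class II genes, Laptm5 and Fcrl6, so the start regions of those with an entry in the RefSeq promoter table are shown. A table entry was found for 23 of the 35 genes. Each window is given 5′ to 3′ on the strand of its gene, from 250 bases before to 50 bases after the annotated start, in build GRCm38.p6. Capitals mark CCAAT, the core of the Y box shared by class II promoters, and GGAAGT, a core bound by Ets family factors including the macrophage factor PU.1, on either strand, so that ATTGG and ACTTCC are the same motifs read on the other strand. No matches overlap in the windows shown.
H2-Aa (chr17:34287774-34288073, minus strand): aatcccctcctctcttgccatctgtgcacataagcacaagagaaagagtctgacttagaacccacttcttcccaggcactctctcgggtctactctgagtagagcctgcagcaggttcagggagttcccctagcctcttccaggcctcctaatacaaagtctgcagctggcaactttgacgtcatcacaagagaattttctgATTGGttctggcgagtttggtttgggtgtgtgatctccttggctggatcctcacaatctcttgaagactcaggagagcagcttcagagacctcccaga
H2-Eb1 (chr17:34305617-34305916, plus strand): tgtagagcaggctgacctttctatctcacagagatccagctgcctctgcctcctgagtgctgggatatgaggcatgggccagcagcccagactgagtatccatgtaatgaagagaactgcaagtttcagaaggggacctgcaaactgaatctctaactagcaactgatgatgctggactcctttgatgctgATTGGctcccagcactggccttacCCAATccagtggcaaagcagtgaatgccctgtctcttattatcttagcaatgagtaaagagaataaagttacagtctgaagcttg
Laptm5 (chr4:130913066-130913365, plus strand): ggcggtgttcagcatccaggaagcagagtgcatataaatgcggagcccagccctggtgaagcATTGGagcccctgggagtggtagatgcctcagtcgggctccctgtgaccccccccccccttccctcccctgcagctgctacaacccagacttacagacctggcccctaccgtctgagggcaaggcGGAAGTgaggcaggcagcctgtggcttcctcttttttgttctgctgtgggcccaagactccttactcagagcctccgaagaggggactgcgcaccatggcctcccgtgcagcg
Fcrl6 (chr1:172602502-172602801, minus strand): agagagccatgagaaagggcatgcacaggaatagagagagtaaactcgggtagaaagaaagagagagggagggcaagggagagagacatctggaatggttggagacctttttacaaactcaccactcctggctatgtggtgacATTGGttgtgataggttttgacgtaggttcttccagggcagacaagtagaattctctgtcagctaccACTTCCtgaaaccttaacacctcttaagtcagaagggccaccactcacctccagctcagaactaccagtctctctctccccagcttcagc

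The H2-Aa window held CCAAT once, on the opposite strand, with its first base 48 bases before the start. In H2-Eb1 the motif occurred on both strands, 59 and 35 bases before the start. The Laptm5 window held GGAAGT 63 bases before the start and the Fcrl6 window held it on the opposite strand 40 bases before. Among the 23 genes with an entry, 12 had GGAAGT and 9 had CCAAT in their first listed window, while 23.8% and 37.4% of all 32851 windows of the same length in the table held these motifs. The Gli motif GACCACCCA, searched on both strands, was in 0 of the 23 windows and in 0.253% of all windows. These matches are letters in a window and were not tested for binding.

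The genes did not move together with loss of Ptch1. Of the 35 genes, 3 were higher in the ablated libraries past an adjusted p of 0.05 (Cd74, Laptm5 and Fcrl6) and 0 were lower, while 8 passed an unadjusted p of 0.05, 6 higher and 2 lower. DESeq2 likewise put 0 of them lower past the adjusted p. Among all genes tested, 4.68% were higher and 3.8% lower at that adjusted p, from edgeR's quasi-likelihood test adjusted by Benjamini-Hochberg over 13888 genes. With a further minimum of 2-fold, which is what "called" means below, only Fcrl6 remained, 1 of 35 (2.86%) against 3.36% of all genes called higher and 2.13% called lower. Levels did not overlap between the groups for 6 of the 35 (17.1%), 5 higher and 1 lower, against 27.4% of all genes tested. The fitted log2 fold change was above 0 for 17 and below 0 for 18, with a median of -0.031 over the 35 and 0.0046 over all genes tested. In bulk RNA, fewer cells of a type and less RNA per cell cannot be told apart.

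**Figure D1:**
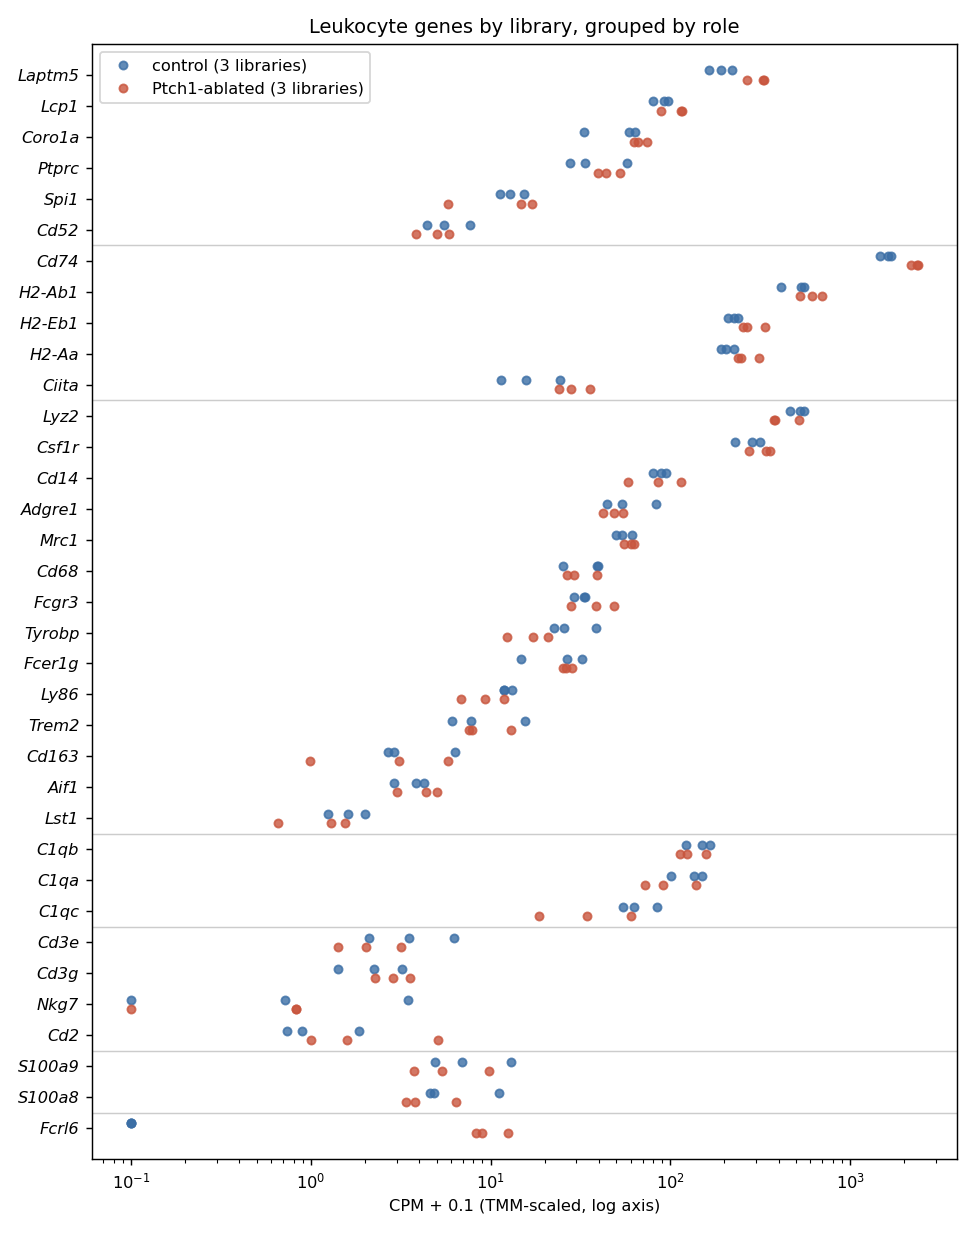
Level of each of the 35 genes in every library, as CPM + 0.1 on a log axis, with genes ordered by role and by control level within a role, separated by grey lines. Blue points are the 3 control libraries and red points the 3 Ptch1-ablated libraries. The groups are apart for Cd74, H2-Aa, H2-Eb1, Laptm5 and Fcrl6, with the ablated libraries higher, and for Tyrobp, with the ablated libraries lower.

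Per transcript length (TPM, the length-normalized level in the table), some genes of macrophages and of class II presentation were far from trace levels. By mean TPM in controls, Cd74 stood 29th of the 17606 genes, Lyz2 85th, H2-Ab1 101st, H2-Aa 258th, C1qb 370th and H2-Eb1 400th. In the ablated libraries Cd74 stood 14th, H2-Ab1 67th and Lyz2 again 85th. Among the low genes, Cd163, a scavenger receptor for hemoglobin, stood 11886th and the T cell gene Cd2 11552nd in controls. The class II gene Ciita stood 9390th and the macrophage gene Aif1 7954th. The 35 genes together took 0.382 to 0.449% of the counts in control libraries and 0.559 to 0.602% in ablated libraries. Cd74 carried most of that difference, since the summed level was 4439 ± 262 against 5422 ± 262 CPM with it and 2849 ± 149 against 3115 ± 374 CPM without it (control against ablated, SD, n = 3 each), and without it the groups overlapped in CPM. In TPM the sum without Cd74 was 5679, 5179 and 4813 in controls and 5772, 5813 and 6906 in ablated libraries, with no overlap and a ratio of 1.18.

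All 5 genes of class II presentation had a positive fold change. Cd74, the invariant chain, was at 1690, 1615 and 1463 CPM in control replicates 1 to 3 and 2355, 2390 and 2176 CPM in ablated replicates 1 to 3, the order in which libraries are given throughout. All 3 ablated libraries lay above all 3 controls. Mean Cd74 rose from 1589 ± 115 to 2307 ± 115 CPM (SD over 3 libraries). On the log2 scale the difference was 0.54 ± 0.10 (SE, adjusted p = 0.00626), which is below 2-fold. This rise passed 0.05 in all 15 alternative fits, with log2 fold changes from 0.48 to 0.75.

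The classical class II chains had positive fold changes of smaller size that did not pass the test. H2-Aa, the I-A alpha chain, was at 227, 203 and 190 CPM in controls and 239, 246 and 311 CPM in ablated libraries (log2 fold change 0.36 ± 0.15, SE, adjusted p = 0.190). H2-Eb1, the I-E beta chain, was at 226, 238 and 210 CPM and then 267, 253 and 334 CPM, for a log2 fold change of 0.34 ± 0.15 (SE, adjusted p = 0.201). Neither gene overlapped between groups, and neither passed the test. For H2-Ab1, the I-A beta chain, the values were 556, 534 and 412 CPM in controls and 611, 526 and 694 CPM in ablated libraries, so that ablated replicate 2 lay below 2 of the 3 controls (log2 fold change 0.29 ± 0.15, SE, adjusted p = 0.322). Ablated replicate 3 held the highest level of all 3 chains. H2-Aa and H2-Eb1 each passed 0.05 in 4 of 15 alternatives and H2-Ab1 in 2, all of them fits on TPM or on library totals, under which the median of all genes itself lay 0.14 to 0.22 above 0 on the log2 scale and not at 0.0046.

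Ciita, the transactivator that class II genes require, was far lower than its targets. It was at 24.2, 15.6 and 11.4 CPM in controls and 23.8, 35.6 and 27.98 CPM in ablated libraries. Control replicate 1 lay just above ablated replicate 1, so the groups overlapped, and the log2 fold change of 0.77 ± 0.31 (SE) had an adjusted p of 0.175. Without control replicate 1 it was 1.11 with an adjusted p of 0.0453. Some of the reads of Ciita were shared out between genes in every library, and its exons overlap those of Dexi.

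The proportions of the class II chains to each other overlapped between the groups. Their level relative to the sum of the 14 listed macrophage and monocyte genes did not. In TPM within a library, H2-Aa over H2-Ab1 was 0.437, 0.409 and 0.495 in controls and 0.419, 0.502 and 0.481 in ablated libraries. H2-Eb1 over H2-Ab1 was 0.303 ± 0.035 and 0.312 ± 0.017 (SD, n = 3 each), and the groups overlapped in both ratios. Cd74 over the sum of the 3 chains was 1.71 ± 0.086 against 2.02 ± 0.361 (control against ablated, SD, n = 3 each), again with overlap, since ablated replicate 3 had the lowest value of all 6 libraries, 1.62. By contrast, the sum of the 3 chains over the sum of the 14 macrophage and monocyte genes was 0.882, 0.961 and 0.781 in controls and 1.33, 1.24 and 1.19 in ablated libraries, with no overlap. Such ratios do not depend on how libraries are scaled, but they do depend on the genes summed. Lyz2, an uncertain value because its reads are shared out, held 1251 of the mean 2074 TPM of the 14 genes in controls. In ablated libraries it held 1191 of 2084 TPM. Further macrophage, monocyte and dendritic genes, given below, had a median log2 fold change of 0.36, while their summed TPM was 0.69 times the control level. Ratios to those genes were not taken.

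**Figure D2:**
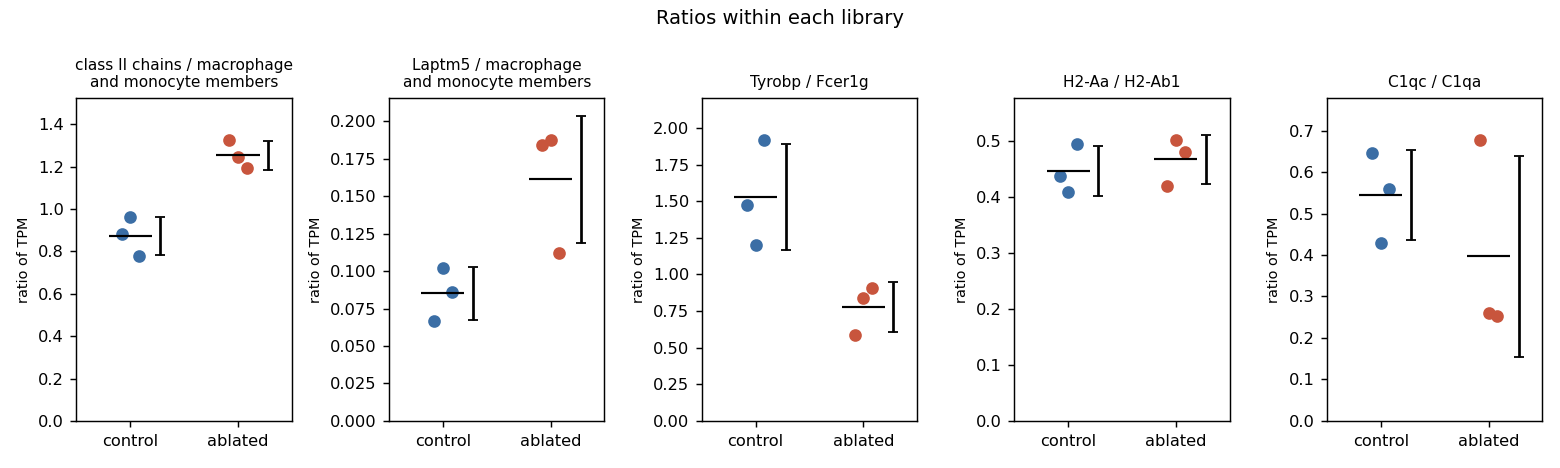
Ratios of TPM within each library, 1 panel per ratio, each axis starting at 0. Points are libraries (blue control, red Ptch1-ablated), black lines group means and bars the SD over 3 libraries. The class II chains and Laptm5 relative to the sum of the 14 macrophage and monocyte genes, mostly Lyz2, are higher in every ablated library. Tyrobp over Fcer1g is lower in every ablated library, and H2-Aa over H2-Ab1 and C1qc over C1qa overlap.

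Of the genes shared by leukocytes, Laptm5 rose and 5 others did not pass the test. Laptm5, a lysosomal membrane protein of hematopoietic cells that dampens antigen receptor signaling, was at 165, 220 and 190 CPM in controls and 329, 330 and 268 CPM in ablated libraries. Every ablated library was above every control. The log2 fold change was 0.69 ± 0.15 (SE, adjusted p = 0.0144). It passed 0.05 in 12 of 15 alternatives, with an adjusted p of 0.0557 without control replicate 1, 0.0578 without ablated replicate 1 and 0.0540 without ablated replicate 2. Laptm5 over the same sum of 14 macrophage and monocyte genes, in which Lyz2 weighs most, was 0.0670, 0.102 and 0.0862 in controls, in TPM. It was 0.184, 0.187 and 0.112 in ablated libraries.

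The other general leukocyte genes overlapped between groups. Ptprc, which encodes the leukocyte common antigen CD45, was at 27.7, 33.3 and 57.3 CPM in controls and 43.5, 39.6 and 52.2 CPM in ablated libraries (log2 fold change 0.19 ± 0.27, SE, adjusted p = 0.767), and the highest of the 6 values was control replicate 3. Coro1a, an actin regulator of leukocytes, was at 58.7, 63.6 and 33.1 CPM and then 65.7, 62.6 and 74.2 CPM. Lcp1, the actin-bundling L-plastin, had 79.6, 96.6 and 92.5 CPM in controls against 117, 88.0 and 114 CPM. For Coro1a and Lcp1 the adjusted p was 0.419 and 0.478. Spi1, the gene of PU.1, was at 15.1, 11.2 and 12.7 CPM in controls and 14.6, 16.8 and 5.72 CPM in ablated libraries, where replicate 3 was lower by more than 2-fold than its 2 companions, and the sign of its fold change depends on the scaling. Cd52, a small surface glycoprotein of lymphocytes and myeloid cells, stayed between 3.74 and 7.62 CPM in all 6 libraries. Coro1a, Lcp1 and Cd52 have exons that overlap a gene on the other strand, and without a stated strand setting the reads cannot be told apart.

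Macrophage and monocyte genes showed no shared shift in this scaling, and none of the 14 passed edgeR's test, with 1, Tyrobp, at an unadjusted p under 0.05. Their summed level was 1136, 1127 and 1171 CPM in controls and 1028, 949 and 1272 CPM in ablated libraries. Fitted log2 fold changes lay between -0.79 and 0.27, with 5 above 0, 9 below 0 and a median of -0.09. The defining surface and lysosomal markers of macrophages overlapped between the groups. Csf1r, the receptor for the growth factor that macrophages need to survive, was at 229, 313 and 286 CPM in controls and 340, 275 and 357 CPM in ablated libraries (log2 fold change 0.23 ± 0.16, SE, adjusted p = 0.462). Its exons share 873 bases with Hmgxb3 on the other strand, so its value is uncertain in the same way. Adgre1, which encodes F4/80, was at 44.1, 53.4 and 83.5 CPM and then 42.2, 54.3 and 48.8 CPM (log2 fold change -0.32 ± 0.24, SE, adjusted p = 0.528). Cd68, a lysosomal sialomucin, was at 38.9, 39.3 and 25.04 CPM in controls and 28.9, 26.4 and 38.9 CPM in ablated libraries. Mrc1, the mannose receptor of resident macrophages, stayed between 49.5 and 62.3 CPM in all 6.

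**Figure D3:**
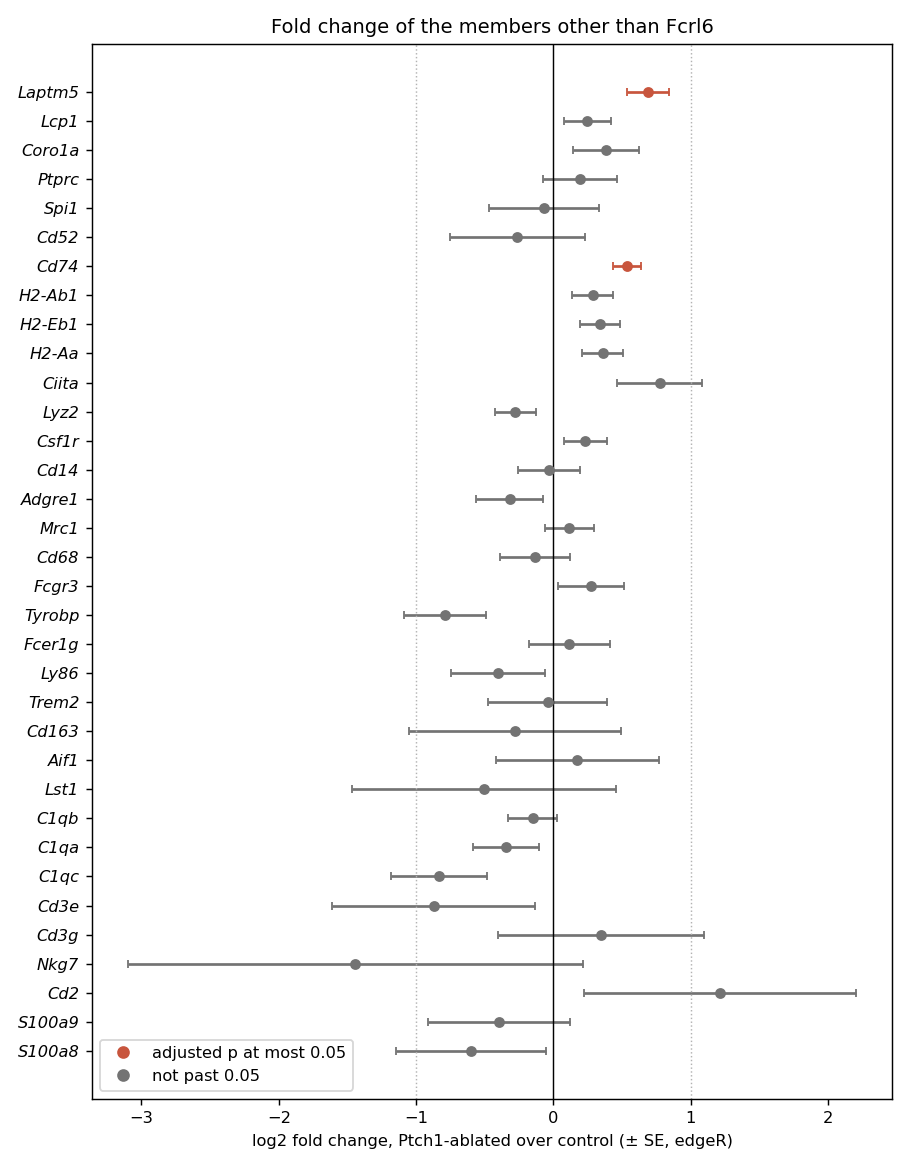
Fitted log2 fold change of Ptch1-ablated over control for the 34 genes other than Fcrl6, in the same order as the plot of levels, with bars of 1 SE from edgeR. Red marks an adjusted p of at most 0.05, grey the rest, and dotted lines mark a 2-fold change. Cd74 and Laptm5 are the red points, the 5 class II genes all lie right of 0, and the widest bars belong to genes of few counts such as Nkg7.

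Effector and recognition genes of the same cells were mixed. Lyz2, the lysozyme of myeloid cells and the most abundant gene of this role, was at 555, 466 and 528 CPM in controls and 377, 380 and 522 CPM in ablated libraries (log2 fold change -0.28 ± 0.15, SE, adjusted p = 0.345). Its close relative Lyz1 is also in the table, and reads of Lyz2 were shared out between genes in every library, so the value is uncertain. Cd14, the lipopolysaccharide co-receptor, was at 79.7, 88.2 and 94.2 CPM in controls and spanned 57.7 to 114 CPM in the ablated libraries. Fcgr3, an activating receptor for IgG, was at 32.8, 33.2 and 28.9 CPM and then 38.5, 27.9 and 48.2 CPM, with reads shared out in the same way. Ly86, the partner of the Toll-like receptor relative RP105, was at 13.1, 11.8 and 11.7 CPM in controls and 6.69, 9.18 and 11.7 CPM in ablated libraries. Trem2, a lipid-sensing receptor, was at 15.4, 7.68 and 5.95 CPM and then 7.76, 7.48 and 12.9 CPM. Cd163 ran from 0.892 to 6.22 CPM, Aif1, the calcium-binding protein IBA1, from 2.80 to 4.93 CPM, and Lst1, a small leukocyte membrane protein, from 0.554 to 1.89 CPM, and the groups overlapped for all 3. Fold changes of Cd14, Cd68 and Trem2 were near 0 and change sign with the scaling.

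Tyrobp and Fcer1g, which encode adaptor proteins that carry the signals of many activating myeloid receptors, had fold changes of opposite sign. Tyrobp (DAP12) was at 38.3, 25.6 and 22.5 CPM in controls and 12.3, 17.0 and 20.7 CPM in ablated libraries, so that the highest ablated library was below the lowest control. Its log2 fold change of -0.79 ± 0.30 (SE) did not pass the test (adjusted p = 0.143, and between 0.105 and 0.384 over 15 alternatives). Fcer1g, the Fc receptor gamma chain, was at 32.3, 26.5 and 14.6 CPM and then 26.0, 25.1 and 28.3 CPM (log2 fold change 0.12 ± 0.29, SE, adjusted p = 0.888). Within each library Tyrobp over Fcer1g in TPM was 1.48, 1.199 and 1.92 in controls and 0.584, 0.842 and 0.909 in ablated libraries, without overlap. This pair was set against each other because their products serve the same kind of receptors, and the ratio itself was not tested.

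The C1q chains, which are secreted by macrophages and assemble into 1 molecule, had negative fitted fold changes that did not pass the test. C1qa was at 134, 150 and 101 CPM in controls and 91.4, 72.1 and 139.5 CPM in ablated libraries. C1qb was at 166, 149 and 122 CPM and then 112, 124 and 157 CPM, and the sign of its fold change depends on the scaling. Ablated replicate 3 lay within the control range for both. C1qc, at 84.0, 62.3 and 54.6 CPM in controls and 60.0, 18.4 and 34.3 CPM in ablated libraries, had the largest difference of the 3 (log2 fold change -0.83 ± 0.35, SE, adjusted p = 0.196). Without ablated replicate 1, the 1 library of that group inside the control range, it was -1.34 with an adjusted p of 0.0321. C1qc over C1qa in TPM was 0.646, 0.428 and 0.559 in controls and 0.677, 0.259 and 0.254 in ablated libraries, so the chains were not in 1 proportion across libraries.

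Markers of lymphocytes were at low counts, and those of lymphocytes and neutrophils varied widely between replicates. Cd3e and Cd3g, chains of the T cell receptor complex, had 134, 65 and 46 counts and 68, 25 and 49 counts in controls, and 72, 31 and 48 counts and 65, 81 and 54 counts in ablated libraries, and Cd3e has exons that overlap a gene on the other strand. Cd2, an adhesion receptor of T and NK cells, had 38, 12 and 18 counts in controls and 21, 117 and 37 counts in ablated libraries, and Nkg7, a granule protein of cytotoxic cells, had 73, 0 and 14 counts and then 17, 0 and 18 counts. A count of 0 allows up to 3 counts, or 0.121 to 0.158 CPM in these libraries, and covers counting error only. Control replicate 1 held the highest value of Cd3e and Nkg7, and ablated replicate 2 the highest of Cd2 and Cd3g. S100a8 and S100a9, which encode the calprotectin of neutrophils and monocytes, were at 10.97, 4.47 and 4.73 CPM and 12.9, 6.78 and 4.77 CPM in controls and at 3.28, 3.70 and 6.32 CPM and 3.67, 5.27 and 9.70 CPM in ablated libraries. None of these 6 genes passed edgeR's test, and 0 had an unadjusted p under 0.05, with adjusted p from 0.561 to 0.864.

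Libraries differed within a group as well as between groups. Control replicate 1 had the highest level of 12 of the 35 genes, among them Tyrobp, Fcer1g, Lyz2, C1qb, C1qc and both calprotectin genes. Control replicate 3 had the lowest level of 10. Ablated replicates 2 and 3 each had the highest level of 8, and ablated replicate 1 of 1. Ranked from 1 (lowest) to 6 within each gene, the libraries had median ranks of 4, 4 and 2 in controls and 4, 2 and 5 in the ablated group, so no library was high or low throughout.

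**Figure D4:**
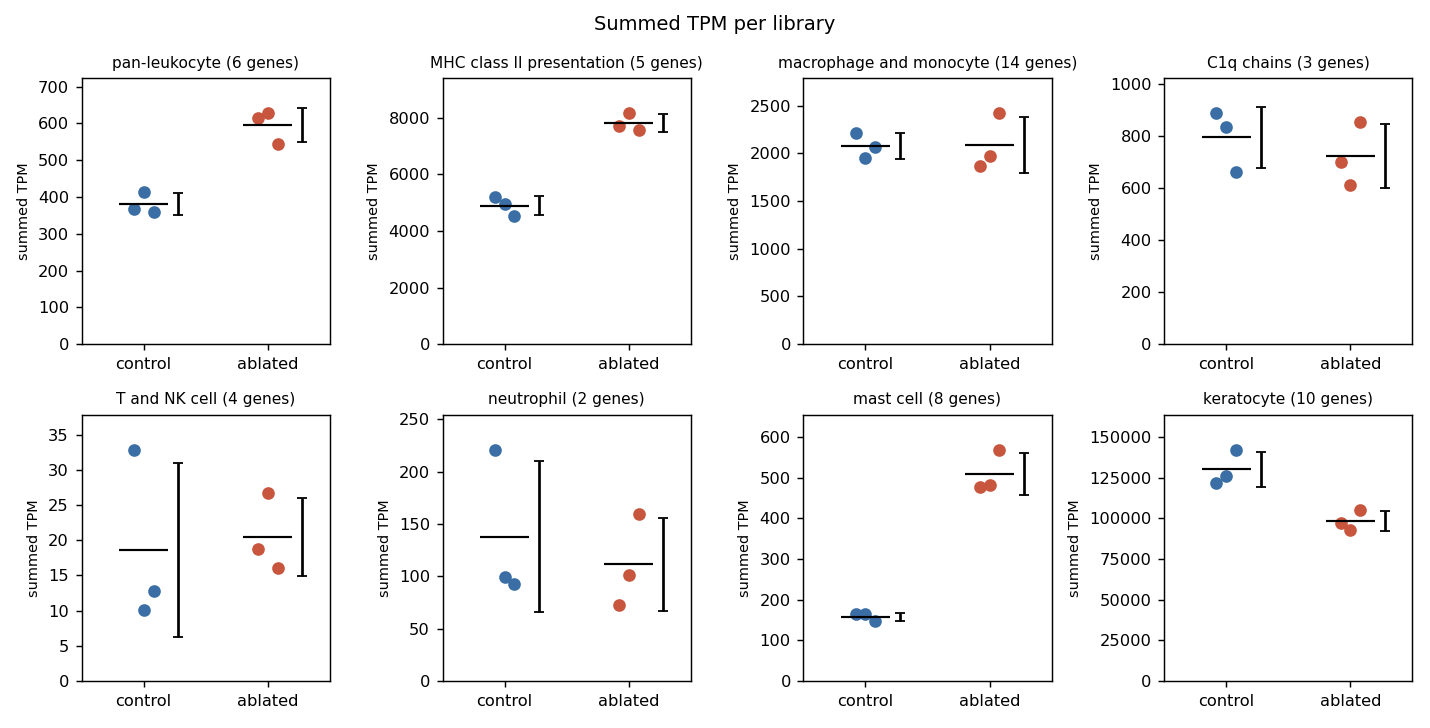
Summed TPM per library for the genes of 6 roles, and for markers of mast cells and keratocytes, with the number of genes in each panel title and every axis starting at 0. Points are libraries (blue control, red Ptch1-ablated), black lines group means and bars the SD over 3 libraries. The class II, general leukocyte and mast cell sums are higher in all 3 ablated libraries, the keratocyte sum is lower in all 3, and the other 4 panels overlap.

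Fcrl6 was the only called gene of the 35. FCRL6 belongs to the Fc receptor-like branch of the immunoglobulin superfamily, and the human protein is known from cytotoxic T and NK cells and binds MHC class II. Fcrl6 (Entrez 677296) had 0 counts in all 3 control libraries and 191, 207 and 308 counts in the ablated libraries, or 8.14, 8.79 and 12.4 CPM. Against a floor of 3 counts in each control library it was at least 62.0-fold higher (adjusted p = 1.09e-04), and it was past 0.05 in all 15 alternatives. With 0 counts in every control, the gene entered the test only through the ablated libraries, where it is high. It was also listed with earlier results of these data known, so its p is descriptive. In TPM the ablated libraries held 12.02, 11.4 and 12.02, and the gene stood 8112th of 17606. In the same libraries the cytotoxic granule gene Nkg7 had 17, 0 and 18 counts and the T cell gene Cd3e 72, 31 and 48 counts.

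Relatives and neighbours of Fcrl6 did not share its pattern in full. Fcrls, the family member expressed by resident macrophages and microglia, was at 45.1 ± 1.37 CPM and then 43.8 ± 15.6 CPM (SD, n = 3 each). Its log2 fold change was -0.04 ± 0.26 (SE, adjusted p = 0.964). Fcrl1, Fcrla and Fcrlb had too few counts to be tested, with at most 43 counts in a library. On the chromosome, Fcrl6 lies between Slamf8 and Dusp23. Slamf8, a myeloid receptor of the SLAM family, had 0, 21 and 44 counts in controls and 104, 69 and 90 counts in ablated libraries, without overlap (log2 fold change 1.85 ± 1.16, SE, adjusted p = 0.421). Dusp23, a phosphatase gene of no particular cell type, rose from 136, 127 and 67 counts to 394, 358 and 288 counts (log2 fold change 1.46 ± 0.40, SE, adjusted p = 0.0442). The next genes outward, Vsig8 and Crp, had at most 16 counts in any library and were not tested.

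A further 140 blood cell genes were listed, of which 105 could be tested, and they cover mast cells, B cells, red cells and platelets beside the cell types of the 35. Of these, 9 were higher and 5 lower past an adjusted p of 0.05, with 7 called higher and 2 called lower, and the median log2 fold change was 0.36. Mast cell genes made up 4 of the 7. Tpsb2, a mast cell tryptase, had 378, 345 and 317 counts in controls and 2112, 1656 and 2411 counts in ablated libraries (log2 fold change 2.38 ± 0.21, SE, adjusted p = 2.17e-05). Kit, the stem cell factor receptor, also present on melanocytes, had 83, 74 and 163 counts and then 494, 533 and 492 counts. Cpa3 and Cma1, a carboxypeptidase and a chymase of mast cell granules, rose by 1.41 and 1.12 on the log2 scale, and without ablated replicate 3 their adjusted p was 0.0619 and 0.0628. Mcpt4 and Hdc did not pass (adjusted p = 0.166 and 0.583, log2 fold changes 0.79 and -0.38). The summed level of the 8 mast cell genes was 84.0 to 86.6 CPM in controls and 206 to 259 CPM in ablated libraries. None of the 35 genes above is particular to mast cells, and the part of these cells in Laptm5, Fcer1g or Fcrl6 was not tested.

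Among further macrophage, monocyte and dendritic genes, 3 of 42 were higher and 3 lower. Csf2rb, the common beta chain of the receptors for IL-3, IL-5 and GM-CSF, rose to 101 ± 30.8 CPM (SD, n = 3), by 1.49 ± 0.26 on the log2 scale (SE, adjusted p = 0.00330), with a close paralog beside it that makes the split of reads uncertain. Itgam, which encodes CD11b, and Cd83, a marker of activated dendritic cells and B cells, rose by 0.79 and 0.72 on the log2 scale (adjusted p = 0.0316 and 0.0445). Gpnmb and Apoe, genes of lipid-laden macrophages that stromal and pigment cells also express, fell by 2.63 and 0.99 on the log2 scale, Gpnmb from 917 ± 27.1 to 148 ± 14.7 CPM (SD, n = 3 each). The lysosomal proteases Lgmn and Ctss, the other abundant genes of this list, had log2 fold changes of 0.53 and 0.46 (adjusted p = 0.0620 and 0.201).

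Accessory genes of the class II pathway did not go with Cd74. Of 9 tested, 0 were higher and 2 lower by edgeR's test, and the unadjusted p was under 0.05 for these 2 alone. H2-DMa, a chain of the peptide editor, fell from 106 ± 7.73 to 61.9 ± 3.06 CPM and Ifi30, a lysosomal thiol reductase that prepares antigens, from 60.1 ± 9.29 to 28.4 ± 1.63 CPM (SD, n = 3 each, adjusted p = 0.00872 and 0.00503). H2-DMb1, the other chain of the editor, had a log2 fold change of 0.0094 ± 0.17 (SE, adjusted p = 0.987). H2-DMb2 and the promoter factor gene Rfxank had -0.24 and 0.26. The sum of the 9 accessory genes was lower in every ablated library, 204 to 213 CPM against 273 to 289 CPM. H2-DMa and Ifi30 carried that difference, and of the 9 genes 4 had a log2 fold change above 0 and 5 below. The summed class II genes of the 35 were higher, 3450 to 3544 CPM against 2288 to 2722 CPM.

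In the remaining lists few genes passed the test. None of 20 further general leukocyte genes passed edgeR's test (1 at an unadjusted p under 0.05). Of the 20, 16 had a log2 fold change above 0 and 4 below. Their median was 0.30, against 0.0046 over all genes tested. The 5 most abundant, Arhgdib, Plek, Inpp5d, Itgb2 and Cd53, had log2 fold changes of -0.19, -0.29, 0.36, 0.05 and 0.19. Of 10 further T and NK genes, none passed, also unadjusted, with values of 0.91, -0.05, 0.96 and -1.03 for Il2rb, Lck, Zap70 and Cd4. The neutrophil granule gene Ngp was called, with 0, 3 and 1 counts in controls and 81, 54 and 67 in ablated libraries. Its adjusted p was above 0.05 in 5 of 15 alternatives, and it too entered the test through the ablated libraries. B cell genes were split, since Cd79b and Blk had log2 fold changes of 0.83 and 1.58 and the plasma cell gene Jchain one of -4.32, none of them past the test, and Ms4a1 had 0 counts in every control and in ablated replicate 3. The neutrophil genes Csf3r, Il1r2, Cxcr2, Mmp8 and Ltf, at -0.86, -1.01, -0.70, -0.19 and 2.29, did not pass. Of red cell and platelet genes, Itga2b was at 1.10 and Gp9 at -1.58, hemoglobin genes had at most 49 counts in a library, and none of 5 tested passed (1 unadjusted).

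**Figure D5:**
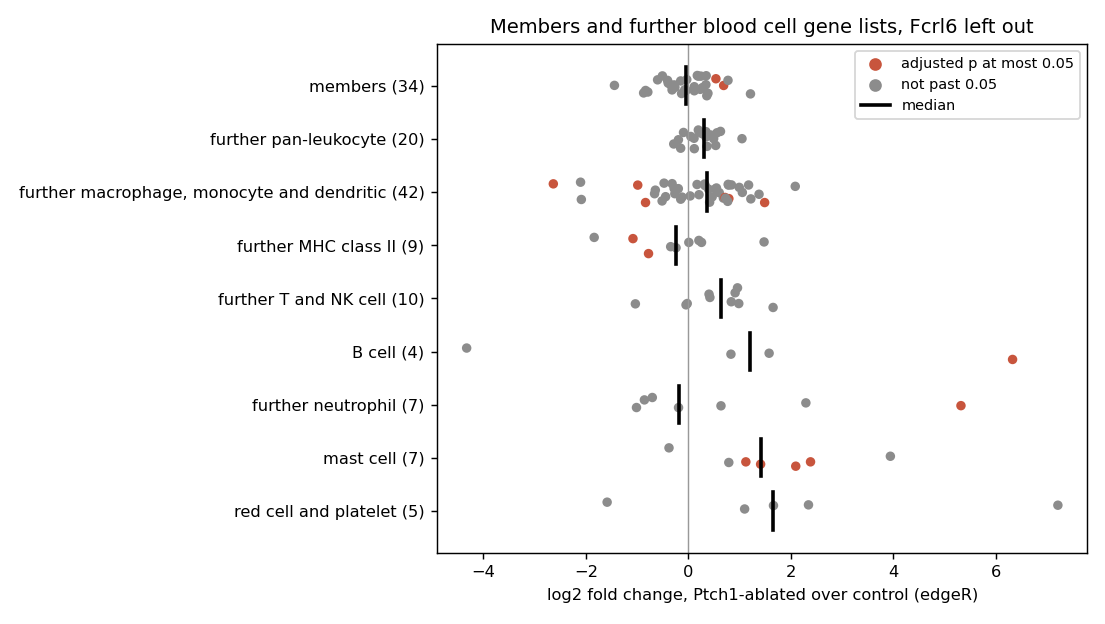
Log2 fold change of Ptch1-ablated over control for 34 of the 35 genes (Fcrl6 left out) and for the genes of 8 further blood cell lists, with the number of genes tested beside each name. Red points have an adjusted p of at most 0.05 and black bars are medians, with points shifted vertically at random for visibility. The mast cell list has 4 red points and a median of 1.41, whereas the accessory class II list has 2 red points, both below 0.

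Markers of other cell types that a corneal sort can hold also differed between the groups. Vascular endothelial genes were higher for 3 of 7 and lower for 0, with a summed level of 630 to 837 CPM in controls and 715 to 803 CPM in ablated libraries. Kdr held 553 of the mean control sum of 728 CPM and was the 1 gene with a negative log2 fold change (-0.40). In TPM the sum was 335 to 449 in controls and 535 to 612 in ablated libraries, without overlap. Of 6 mural cell genes 3 were higher, and their sum was 352 to 364 CPM against 631 to 639 CPM. Schwann cell genes were higher for 1 of 5, at 165 to 172 and 196 to 212 CPM. Of 6 tested epithelial genes 3 were lower and 1 higher, at 39.6 to 69.0 and 2.68 to 9.68 CPM. Melanocyte genes passed for 0 of 3, also unadjusted, at 3.72 to 7.22 and 4.59 to 7.61 CPM. The epithelial gene Krt12 had 0 counts in all controls. The part of these cells in the values of Cd74, Laptm5 and the class II chains was not tested.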

How the data were processed

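RNA of FACS-sorted corneal keratocytes was measured in 6 mouse samples, 3 per group, with groups and replicate numbers read from the sample titles. Per the labels, Trizol extraction was followed by an Illumina TruSeq library kit, whereas the paper's methods describe ribosomal RNA depletion and a BGISEQ platform. The authors aligned reads with Bowtie2 (2.2.5) and quantified genes with RSEM (1.2.12), and the submitters' processing notes name build mm9. Strandedness is not given in the sources used here. The deposited table holds RSEM expected counts, not normalized, with 18.6% of them not whole because shared reads are split, and TPM values, which the authors scaled by length to a common sum. Deposited FPKM values were not used.

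Expected counts were rounded, filtered by filterByExpr (13888 of 17606 genes), scaled by TMM and compared with edgeR's quasi-likelihood test (two-sided, without covariates). P-values were adjusted by Benjamini-Hochberg over the genes tested. Called genes had an adjusted p of at most 0.05 and at least 2-fold change, the thresholds in the study's methods. Its results give the p cutoff for keratocytes without saying that it was adjusted. The SE is the log2 fold change over the square root of F. CPM are per 1000000 counts of the TMM-scaled total. Where every library of a group was at or under 3 counts the fold is a bound. Sums, ratios and medians over genes were not tested. The paper's methods give 3 biological replicates per group, and whether animals were pooled is not stated. The p-values measure only the spread between these samples. Replicate numbers did not pair the samples (correlations of same-numbered deviations between -0.06 and 0.04).

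The 35 genes, their roles, the ratios and the further lists were chosen with earlier results of these data known. Genes named were all 35, the called genes and 5 most abundant genes of each further list, the Fc receptor-like family and the 2 nearest genes on each side of Fcrl6, and a few of these genes are counted but not reported here. Names and gene order came from a RefSeq gene table, and promoter windows from RefSeq, both of assembly GRCm38.p6. Exon overlaps were looked up by symbol in the GENCODE annotation. The tests were run on simulated data first. Alternatives were DESeq2, RLE, upper quartile and library-total scaling, no low-count filter, limma on log2(TPM + 1), with and without that filter, and on log2(TPM + 0.1), the replicate number as a block, leaving out each library, and no fold minimum. An unadjusted p and a sum without Cd74 were added after seeing the data. The tools were edgeR 4.0.16, DESeq2 1.42.0 and limma 3.58.1 in R 4.3.3, and Python 3.11.15.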

Additional observations from a re-analysis of the deposited data

How the results depend on the processing

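Cd74 kept its direction and its side of 0.05 in all 15 alternatives, and Laptm5 its direction in all and its side in 12. Fcrl6 was also past 0.05 in all 15, but with 0 counts in every control its direction could not turn. All 5 class II genes were above 0 in every alternative. The fits on library totals and on TPM, the latter changing unit and test at once, shifted all genes: the median of all genes was 0.0046 on the log2 scale under TMM, 0.17 under library totals and 0.19, 0.22 and 0.14 in the fits on log2(TPM + 1), log2(TPM + 0.1) and log2(TPM + 1) without a filter. Of the 35 genes, 5 were then past the adjusted p and higher with library totals, 7 with log2(TPM + 1) and with log2(TPM + 0.1), and 5 without the filter, and in both filtered TPM fits 2 were called, both higher. With log2(TPM + 1) 768 genes were called higher in place of 467. The median of the 35 was 0.24, 0.25 and 0.24 in the 3 TPM fits, so it lay close to the median of all genes there too. The summed level of the 35 was 1.37 times the control level in TPM and 1.09 times in CPM without Cd74, in place of 1.22. With no fold minimum 1178 genes (528 lower) and 3 of the 35 (3 higher) were called, and with an unadjusted p 2854 genes (1504 higher, 1350 lower) and 8 of the 35 (6 higher, 2 lower).

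Each direction that turned belonged to a gene that did not pass the test, and most of these values were near 0, with Nkg7 (-1.44), S100a9 (-0.39) and Cd163 (-0.28) as exceptions. With library totals, log2(TPM + 1), log2(TPM + 0.1) and log2(TPM + 1) without a filter, in that order, Spi1 was at 0.098, 0.011, 0.0035 and 0.011, Cd68 at 0.030, 0.087, 0.089 and 0.087, Cd14 at 0.13, 0.13, 0.13 and 0.13, Trem2 at 0.11, 0.24, 0.25 and 0.24, and C1qb at 0.014, 0.058, 0.058 and 0.058, while all genes had shifted by the medians above. Leaving out 1 library at a time gave between 1 and 2 of the 35 called (1 to 2 higher, 0 to 1 lower) and 0 to 1 past the adjusted p and lower. The second call was Ciita without control replicate 1 and C1qc without ablated replicate 1. Such fits moved Ptprc between -0.0079 and 0.56, Spi1 between -0.35 and 0.27, Fcer1g between -0.15 and 0.37, Cd163 between -0.99 and 0.25, Cd14 between -0.30 and 0.19, Trem2 between -0.35 and 0.46, Nkg7 between -2.02 and 0.63, and S100a9 between -0.87 and 0.10. With the replicate block Trem2 was at 0.026. The samples share only replicate numbers, the best-correlated library was not the one of the same number in every case, and the block took the number of called genes from 763 to 663 and changed no call among the 35.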
